A study of Mus musculus with 5 samples.

Results

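The calcium handling and NFAT genes described here are 10 genes: the endoplasmic reticulum calcium pumps Atp2a3 and Atp2a2, the store sensors Stim1 and Stim2, the plasma membrane channels Orai1 and Orai2, the release channel Itpr1 and the transcription factors Nfatc1, Nfatc2 and Nfatc3. They were chosen by name from the 47729 genes of a table of raw read counts, and all 10 were present and passed the filter on low counts. The choice was made with the difference between the genotypes known, so that every comparison of these 10 genes between genotypes is a description without a test. RNA was sequenced from freshly sorted dermal group 2 innate lymphoid cells (dILC2s), a tissue-resident lymphocyte that makes type-2 cytokines, taken from mouse skin without ex vivo stimulation. WT libraries were 3 pools of C57BL/6 mice (pools 5, 6 and 13, 10 mice each by the study's methods). Rag1-/- libraries were 2 pools (pools 2 and 7, 9 mice each by the methods, while the labels give 16 Rag1-/- mice in all) on the same background. These mice carry no functional recombinase for antigen receptor genes and so lack mature T and B cells. Mice were female and 8 to 13 weeks old by the methods, which identify dILC2s in flow cytometry as viable CD45+CD90hi cells without CD2 or CD3 signal and give no separate gate for the sort.

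Calcium is kept low in the cytosol and high in the endoplasmic reticulum. The SERCA pumps, encoded by the Atp2a genes, fill the store, and receptors for inositol trisphosphate (IP3), among them Itpr1, empty it after a surface receptor has been engaged. STIM proteins sense the emptied store and open ORAI channels in the plasma membrane, and the calcium that enters activates the phosphatase calcineurin, which lets NFAT factors move to the nucleus. In lymphocytes this route drives cytokine genes, and in ILC2s it acts beside the signals of alarmins such as IL-33.

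Promoters are shown for Atp2a3, Orai1 and Orai2, the 3 members called higher in Rag1-/- libraries, and for Nfatc2. Of the windows of Nfatc2 and Nfatc3, the Nfatc2 window shown held the most NFAT core motifs. The sequences are RefSeq windows on GRCm38.p6 from 250 bases before to 50 bases after the start site, read in the direction of the gene. Windows were used for 7 of the 10 members (9 windows), and Atp2a2, Itpr1 and Nfatc1 were not scanned. Capitals mark the NFAT core GGAAA and the GC box GGGCGG, on either strand. The windows lie at chr11:72960919-72961218 on the plus strand for Atp2a3, at chr5:123014824-123015123 on the plus strand for Orai1, at chr5:136170607-136170906 on the minus strand for Orai2 and at chr2:168601608-168601907 on the minus strand for Nfatc2.
Atp2a3: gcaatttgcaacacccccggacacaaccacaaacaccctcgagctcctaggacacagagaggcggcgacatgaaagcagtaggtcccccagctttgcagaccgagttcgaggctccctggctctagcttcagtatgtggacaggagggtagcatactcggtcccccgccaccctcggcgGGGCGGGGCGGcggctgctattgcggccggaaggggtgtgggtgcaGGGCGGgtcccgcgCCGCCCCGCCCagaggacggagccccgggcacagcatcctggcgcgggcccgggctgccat
Orai1: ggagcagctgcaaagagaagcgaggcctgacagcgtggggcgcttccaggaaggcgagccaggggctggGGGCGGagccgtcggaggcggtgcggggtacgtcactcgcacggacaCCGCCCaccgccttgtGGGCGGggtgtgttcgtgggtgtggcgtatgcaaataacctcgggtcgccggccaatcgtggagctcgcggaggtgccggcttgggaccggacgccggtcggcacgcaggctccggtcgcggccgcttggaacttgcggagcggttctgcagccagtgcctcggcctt
Orai2: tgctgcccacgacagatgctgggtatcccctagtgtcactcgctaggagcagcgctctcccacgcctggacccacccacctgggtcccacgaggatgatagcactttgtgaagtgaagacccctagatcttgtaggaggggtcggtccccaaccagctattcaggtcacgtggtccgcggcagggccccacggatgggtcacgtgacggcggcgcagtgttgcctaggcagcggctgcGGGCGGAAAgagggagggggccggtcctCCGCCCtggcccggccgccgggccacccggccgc
Nfatc2: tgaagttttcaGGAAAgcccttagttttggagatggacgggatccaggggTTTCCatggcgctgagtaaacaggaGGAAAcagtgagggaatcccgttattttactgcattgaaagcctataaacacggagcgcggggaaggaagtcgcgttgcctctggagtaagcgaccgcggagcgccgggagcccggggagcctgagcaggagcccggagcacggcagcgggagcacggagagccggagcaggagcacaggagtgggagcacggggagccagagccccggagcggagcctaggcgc

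The Atp2a3 window had 5 GC boxes and no NFAT core, and its GC content was 68.3%. The Orai1 window had 3 GC boxes and no NFAT core at a GC content of 70.3%. The Orai2 window, with a GC content of 68.0%, had 2 GC boxes and 1 NFAT core that begins 8 bases before the start site. The Nfatc2 window shown was the least GC-rich of these (62.0%) and had 3 NFAT cores and no GC box. It was the only member window scanned that held the letters TATAAA. A second Nfatc2 window had 1 NFAT core and 4 GC boxes. Over the members scanned, GGAAA was present in 4 of 9 windows and GGGCGG in 7 of 9. The shares were 61.3% and 35.7% of the 32851 windows of the same length in the table, whose median GC content was 52.7%. The GATA motif AGATAA and the AP-1 motif TGANTCA were in 0 of 9 member windows, against 11.2% and 7.81% of all windows. The RUNX motif TGTGGT was in 1 member window (16.8% of all windows) and the ETS motif CGGAAG in 2 (16.9%). The ETS motif shares GGAA with the NFAT core but goes on with G, so 1 site is never counted under both. A match is a run of letters and not a measured binding site.

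WT libraries ranged in depth from 32939428 to 39477243 counts, while Rag1-/- pool 2 held 8050562 and pool 7 38922750. A floor of 3 counts was set for each library, which equals 0.0760 to 0.0911 CPM (the count scaled by the library total) in WT, 0.373 in Rag1-/- pool 2 and 0.0771 in pool 7. The lowest count of any member was 483 (Orai2 in Rag1-/- pool 2), so that every member was measured far above this limit. The labels list the cell type as type 2 for WT and as type 3 for Rag1-/- libraries, while the study describes both as dILC2s. Gata3, a defining ILC2 factor, was at 199 to 319 CPM in WT and at 558 and 369 CPM in Rag1-/- pools 2 and 7 (log2 fold change 0.92, not called). Of 16 ILC2 genes tested, 16 had a positive log2 fold change and 5 were called higher (median 1.84), and of 8 ILC3 genes, 7 were positive and 4 were called higher (median 3.07). The summed ILC3 level was 152 to 167 CPM in WT and 258 to 390 CPM in Rag1-/-. Transcripts of Rag1 itself numbered 4, 0 and 5 in WT and 5 and 48 in the libraries labelled Rag1-/-, and counts over the gene do not show whether the deleted part was read.

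Marker genes of several cell types differed between the genotypes. The summed level of 31 leukocyte genes was 1177 to 2804 CPM in WT and 8159 and 9373 CPM in Rag1-/-. Of these, 31 of 31 genes had a positive log2 fold change (23 were called higher, median 2.00). The summed level of 16 ILC2 genes was 1644 to 3308 CPM in WT and 5853 to 8295 CPM in Rag1-/-. The summed level of 17 keratinocyte genes was 31362 to 44812 CPM in WT and 8027 to 18085 CPM in Rag1-/-, with 0 of 17 genes positive and 6 called lower. For T cell genes the sums were 81.0 to 172 CPM and 466 to 521 CPM, and Cd8a and Cd8b1 were at 0 in some libraries. Of 14 T cell genes tested, 13 had a positive log2 fold change and 5 were called higher (median 1.35). Among the genes of the CD3 chains, Cd3g (2.23 on the log2 scale) and Cd247 (1.71) were called higher. Cd3e had a log2 fold change of 0.32 and Cd3d of 0.38, neither called. The other T cell genes called higher were Trac (2.11), Trbc2 (2.43) and Lat (2.17). The part of this composition in the members' differences was not tested, and its values are set beside them after the account of each member. In bulk libraries, fewer cells of a type and less RNA per cell cannot be told apart.

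Among the members, Atp2a3, Orai1 and Orai2 were higher in the Rag1-/- libraries under TMM scaling. Scaled on the leukocyte genes, their log2 fold changes were negative, at -0.36 (SE 0.71), -1.06 (SE 0.73) and -0.77 (SE 0.72). The median of all genes was then -2.19. Atp2a2, the widely used SERCA pump, and Nfatc1 were lower in both Rag1-/- libraries than in every WT library, by less than the fold threshold. Nfatc2 and Nfatc3 were above every WT library in both Rag1-/- libraries, also below that threshold, and Stim1, Stim2 and Itpr1 overlapped between genotypes. In counts, 3 of 10 members were called higher and 0 lower (edgeR, adjusted p under 0.05 and a log2 fold change above 1 in size), where 3.57% of the 19011 genes tested were called higher, 2.16% lower and 5.73% either way. Scaled on the leukocyte genes instead, the 679 genes called higher and 411 called lower became 16 and 13293, and 0 members were called higher and 6 lower. With 1 library left out, 0 members were called without WT pool 5, 6 or 13 or Rag1-/- pool 2, and Atp2a3 alone without Rag1-/- pool 7, while the log2 fold changes lay between 1.71 and 1.86 for Atp2a3, 0.90 and 1.32 for Orai1 and 1.11 and 1.59 for Orai2. The libraries of the genotypes did not overlap for 7 of 10 members (5 above and 2 below in Rag1-/-), where 45.9% of all genes did not overlap (21.9% above and 24% below). The median log2 fold change was 0.29 for the members and 0.02 for all genes.

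**Figure D1:**
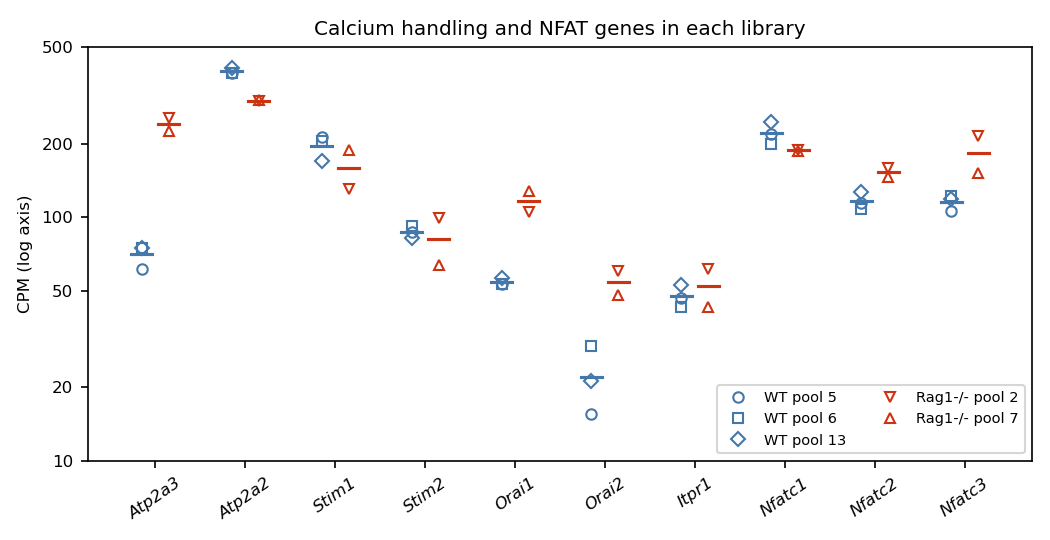
Level of each of the 10 genes in each library, in CPM on a log axis, with open symbols for the 3 WT pools (blue) and the 2 Rag1-/- pools (red) and a bar for each group's mean. The red symbols of Atp2a3, Orai1 and Orai2 lie above all blue ones, from 48.0 CPM for Orai2 to 254 CPM for Atp2a3, while those of Atp2a2 lie below them at 299 and 302 CPM. Scaled on leukocyte genes, the log2 fold changes of Atp2a3, Orai1 and Orai2 are negative (-0.36, -1.06 and -0.77), with standard errors of 0.71 to 0.73.

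Atp2a3 encodes SERCA3, the pump typical of blood cells, platelets and some epithelia (chromosome 11, 72961169 to 72993044, plus strand, GRCm38). Its level was 61.3, 74.8 and 75.0 CPM in WT pools 5, 6 and 13, and 254 and 226 CPM in Rag1-/- pools 2 and 7. Both Rag1-/- libraries were above all WT libraries, and the lower of them was 3.22 times the WT mean. The means were 70.3 ± 7.85 CPM (SD, n = 3) and 240 ± 19.9 CPM (SD, n = 2), and the log2 fold change was 1.80 (SE 0.19), the highest of the 10 members. No other annotated gene overlaps Atp2a3.

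Atp2a2 encodes SERCA2, the pump present in nearly all cells (chromosome 5, 122453513 to 122502225, minus strand). Its level was 392, 392 and 409 CPM in WT and 299 and 302 CPM in Rag1-/-. The WT libraries lay within 1.04 times of each other, and both Rag1-/- libraries were below them. Gm43361, on the opposite strand, shares 83 exonic bases with Atp2a2 and had 32 to 278 counts a library, against 2409 to 15466 for Atp2a2. The log2 fold change was -0.37 (SE 0.19), and the group means were 398 ± 9.79 CPM (SD, n = 3) and 301 ± 2.02 CPM (SD, n = 2).

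Set against each other within a library, where the scaling between libraries cancels, the pumps differed between genotypes. Such a ratio does not remove the mix of cells in a library, whose part in it was not tested. The ratio of Atp2a3 to Atp2a2 counts was 0.156, 0.191 and 0.183 in WT and 0.850 and 0.749 in Rag1-/-. The groups did not overlap, and the mean ratio was 4.52 times as high in Rag1-/- (0.177 ± 0.0182, n = 3, against 0.800 ± 0.0714, n = 2, SD). Per kilobase of exon sequence, Atp2a3 made up 15.1%, 17.7% and 17.0% of the summed SERCA level in WT and 48.3% and 44.0% in Rag1-/-. Atp2a2 made up 81.8% ± 1.92 (SD, n = 3) in WT and 50.2% ± 1.23 (SD, n = 2) in Rag1-/-. Atp2a1, the skeletal muscle pump and no member here, supplied the small rest (0.907% to 2.30% in WT, 2.43% and 4.92% in Rag1-/-). The summed SERCA level was 76.8, 79.9 and 83.4 CPM per kilobase in WT and 99.8 and 97.3 in Rag1-/-.

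**Figure D2:**
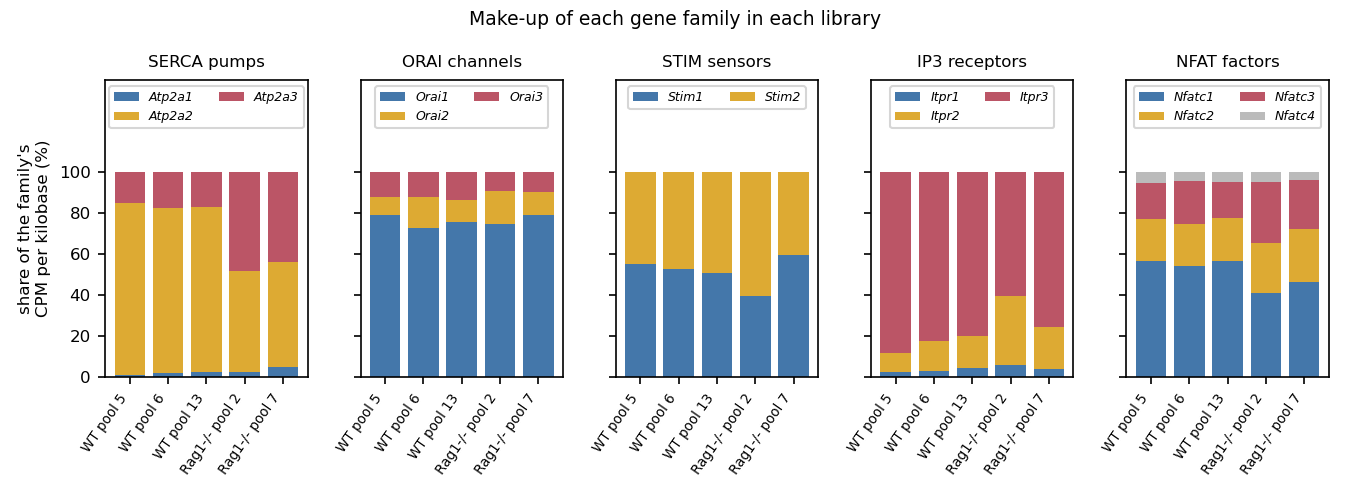
Share of each gene in the summed CPM per kilobase of its family, in percent, as stacked bars for each of the 5 libraries. The share of Atp2a3 among SERCA pumps is 15.1% to 17.7% in the WT pools and 44.0% to 48.3% in the Rag1-/- pools, and that of Nfatc1 among NFAT factors is 54.1% to 56.8% and 41.0% to 46.5%.

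Orai1 encodes the pore of the store-operated calcium channel (chromosome 5, 123015074 to 123030456, plus strand). Its level was 53.0, 53.1 and 56.0 CPM in WT and 105 and 128 CPM in Rag1-/-. The WT libraries were close together, within 1.06 times, and both Rag1-/- libraries were above them. The mean was 54.1 ± 1.72 CPM (SD, n = 3) in WT and 117 ± 16.5 CPM (SD, n = 2) in Rag1-/-, with a log2 fold change of 1.15 (SE 0.19).

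Orai2, a related channel subunit that can assemble with Orai1, lies on the minus strand of the same chromosome (136147459 to 136170713). Its level was 15.5, 29.5 and 21.3 CPM in WT and 60.0 and 48.0 CPM in Rag1-/-. Pools 5 and 6 of WT differed by 1.90 times, the widest spread of any member within WT, and the lower Rag1-/- library was still above both. The log2 fold change was 1.31 (SE 0.29) from means of 22.1 ± 7.04 CPM (SD, n = 3) and 54.0 ± 8.51 CPM (SD, n = 2).

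The sum of the channel genes was higher in Rag1-/-, while the proportion of the members to each other overlapped. Orai1 to Orai2 count ratios were 3.42, 1.80 and 2.63 in WT and 1.75 and 2.68 in Rag1-/-. The ORAI family sum was 29.2 to 32.3 CPM per kilobase in WT and 61.5 and 70.7 in Rag1-/-, and Orai1 made up 72.7% to 79.2% of it in WT and 74.5% and 79.2% in Rag1-/-. Orai3, the third subunit and no member, made up 12.5% ± 0.831 (SD, n = 3) in WT and 9.53% ± 0.133 (SD, n = 2) in Rag1-/-. Its log2 fold change was 0.73 (SE 0.25, edgeR adjusted p = 0.122).

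Stim1 encodes the main sensor of the store (chromosome 7, 102267824 to 102436848, plus strand). Its level was 213, 205 and 170 CPM in WT and 131 and 188 CPM in Rag1-/-. The Rag1-/- pools differed from each other by 1.44 times, and pool 7 lay inside the WT range. The log2 fold change was -0.26 (SE 0.24), with means of 196 ± 23.0 CPM (SD, n = 3) and 159 ± 40.5 CPM (SD, n = 2).

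Stim2, the sensor that responds to smaller losses of stored calcium (chromosome 5, 53998499 to 54121057, plus strand), was at 86.8, 91.7 and 81.8 CPM in WT and 99.2 and 63.8 CPM in Rag1-/-. One Rag1-/- library was above and the other below all WT libraries. The log2 fold change was -0.07 (SE 0.22), and the means were 86.8 ± 4.97 CPM (SD, n = 3) and 81.5 ± 25.1 CPM (SD, n = 2). Within a library, Stim1 to Stim2 ratios were 2.46, 2.23 and 2.08 in WT, against 1.32 and 2.95 in Rag1-/-, so that the Rag1-/- pools lay on either side of WT. Per kilobase of exon sequence, the summed STIM level was 32.3 to 37.6 CPM in WT and 31.9 and 30.6 in Rag1-/-. Such a sum depends on the length used: Stim1 has 10371 bases of exon sequence but a transcript length of 3597 by the authors' annotation. Family sums and shares were not repeated with the second length.

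Channel and sensor were also set against each other. The ratio of Orai1 to Stim1 counts, which was chosen after these values were seen, was 0.249, 0.259 and 0.330 in WT and 0.803 and 0.683 in Rag1-/-. Both Rag1-/- libraries were above all WT libraries, with means of 0.279 ± 0.0441 (SD, n = 3) and 0.743 ± 0.0852 (SD, n = 2).

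Itpr1, an IP3 receptor that lets calcium out of the store (chromosome 6, 108213096 to 108551109, plus strand), was at 46.5, 42.8 and 52.6 CPM in WT and 61.4 and 42.7 CPM in Rag1-/-. The groups overlapped, and the log2 fold change was 0.16 (SE 0.21) from means of 47.3 ± 4.94 CPM (SD, n = 3) and 52.0 ± 13.2 CPM (SD, n = 2). Itpr1 was a minor receptor in every library. It made up 2.48% to 4.43% of the IP3 receptor level per kilobase in WT and 5.56% and 3.84% in Rag1-/-, where Itpr3 held 80.2% to 88.2% in WT and 60.3% and 75.8% in Rag1-/-. Itpr2 held 9.32% to 15.4% in WT and 34.1% and 20.3% in Rag1-/-.

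Nfatc2 encodes NFAT1, the factor most studied in T cells (chromosome 2, 168476410 to 168601657, minus strand). It was at 114, 108 and 127 CPM in WT and 160 and 146 CPM in Rag1-/-. Both Rag1-/- libraries were above WT, and the log2 fold change was 0.42 (SE 0.18). The means were 117 ± 9.74 CPM (SD, n = 3) and 153 ± 9.50 CPM (SD, n = 2).

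Nfatc3 encodes NFAT4 (chromosome 8, 106059603 to 106130537, plus strand). It was at 106, 122 and 118 CPM in WT and 215 and 151 CPM in Rag1-/-. Pool 2 was 1.42 times as high as pool 7, and both were above WT, with a log2 fold change of 0.69 (SE 0.21). The means were 115 ± 8.73 CPM (SD, n = 3) and 183 ± 44.6 CPM (SD, n = 2). Nfatc3 shares 219 exonic bases with Esrp2, an epithelial splicing factor on the opposite strand, and the library kit does not mark strand. Esrp2 counts were 6697, 5673 and 3736 in WT and 179 and 1962 in Rag1-/-. The effect of the shared bases on the Nfatc3 counts was not tested.

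Nfatc1 encodes NFAT2, which has an inducible short form (chromosome 18, 80606205 to 80713071, minus strand). It was at 219, 200.3 and 246 CPM in WT and 189 and 187 CPM in Rag1-/-. Both Rag1-/- libraries were below the lowest WT library, with a log2 fold change of -0.21 (SE 0.19) and means of 222 ± 23.1 CPM (SD, n = 3) and 188 ± 1.23 CPM (SD, n = 2). The counts are per gene and do not separate its forms.

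Within a library, the proportion of Nfatc2 and Nfatc3 to Nfatc1 was higher in Rag1-/-. Nfatc2 to Nfatc1 ratios were 0.519, 0.541 and 0.517 in WT and 0.845 and 0.781 in Rag1-/-. The WT libraries were within a narrow band (mean 0.526, SD 0.0131, n = 3) below both Rag1-/- libraries (mean 0.813, SD 0.0452, n = 2). Nfatc3 to Nfatc1 ratios were 0.481, 0.611 and 0.481 in WT and 1.14 and 0.809 in Rag1-/-, again without overlap. Nfatc3 to Nfatc2 ratios overlapped, at 0.927, 1.13 and 0.931 in WT and 1.34 and 1.04 in Rag1-/-. As a share of the 4 calcium-regulated NFAT genes per kilobase, Nfatc1 made up 54.1% to 56.8% in WT and 41.0% and 46.5% in Rag1-/-. Nfatc2 held 20.6% to 20.7% in WT and 24.5% and 25.6% in Rag1-/-, and Nfatc3 held 17.3% to 21.0% and then 29.7% and 23.9%.

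Levels were then compared between genes per kilobase of exon sequence. In WT, Atp2a2 was highest (65.4 ± 1.61 CPM per kilobase, SD, n = 3), followed by Nfatc1 (29.7 ± 3.09), Orai1 (23.6 ± 0.748), Stim1 (18.9 ± 2.22), Stim2 (16.9 ± 0.967) and Atp2a3 (13.3 ± 1.49). Nfatc2 (11.0 ± 0.920), Nfatc3 (9.85 ± 0.745), Orai2 (3.64 ± 1.16) and Itpr1 (2.58 ± 0.270) came last. The WT ranges overlapped between Stim1 and Stim2, between Atp2a3 and Nfatc2, between Nfatc2 and Nfatc3, and between Orai2 and Itpr1. In Rag1-/-, Orai1 (50.9 ± 7.20 CPM per kilobase, SD, n = 2), Atp2a2 (49.4 ± 0.332) and Atp2a3 (45.5 ± 3.76) led, and Orai1 and Atp2a2 overlapped. Nfatc1 followed at 25.2 ± 0.165, and Stim2, Nfatc3, Stim1 and Nfatc2 lay between 14.5 and 15.9, each overlapping the next. Orai2 (8.88 ± 1.40) and Itpr1 (2.84 ± 0.720) remained last. With the transcript length given in the count table instead of the exon length, Stim1 was the 2nd in WT (54.5 CPM per kilobase) and Atp2a3 the 8th (15.5), and Atp2a2, Orai1 and Atp2a3 were the first 3 in Rag1-/-.

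The levels of the members can be read beside the composition of the libraries. As a multiple of the WT mean, the leukocyte sum was 0.522, 1.24 and 1.23 in WT and 4.16 and 3.62 in Rag1-/-, and the keratinocyte sum was 1.20, 0.957 and 0.841 in WT and 0.215 and 0.485 in Rag1-/-. Atp2a3 was at 3.62 and 3.22 in Rag1-/-, Orai1 at 1.94 and 2.38, and Orai2 at 2.71 and 2.17. Within WT, the leukocyte sum differed by 2.38 times between its highest and lowest library, Orai2 by 1.90, Atp2a3 by 1.22, Orai1 by 1.06 and Atp2a2 by 1.04.

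Per 1000 counts of the leukocyte list, Atp2a3 had 52.0, 26.7 and 27.0 counts in WT and 27.1 and 27.7 in Rag1-/-. The Rag1-/- values were close to those of WT pools 6 and 13, and WT pool 5 was higher. On this scale the other 9 members were lower in both Rag1-/- libraries than in every WT library. Orai1 had 45.0, 18.9 and 20.1 counts in WT and 11.2 and 15.7 in Rag1-/-, and Orai2 had 13.2, 10.5 and 7.66 in WT and 6.40 and 5.88 in Rag1-/-. The log2 fold change under scaling on the leukocyte list was -0.36 (SE 0.71) for Atp2a3, -1.06 (SE 0.73) for Orai1 and -0.77 (SE 0.72) for Orai2. The median of all genes was then -2.19. Ratios between members of 1 library are the same on either scale. The mix of cells can still enter these ratios and the family shares, which was not tested.

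**Figure D3:**
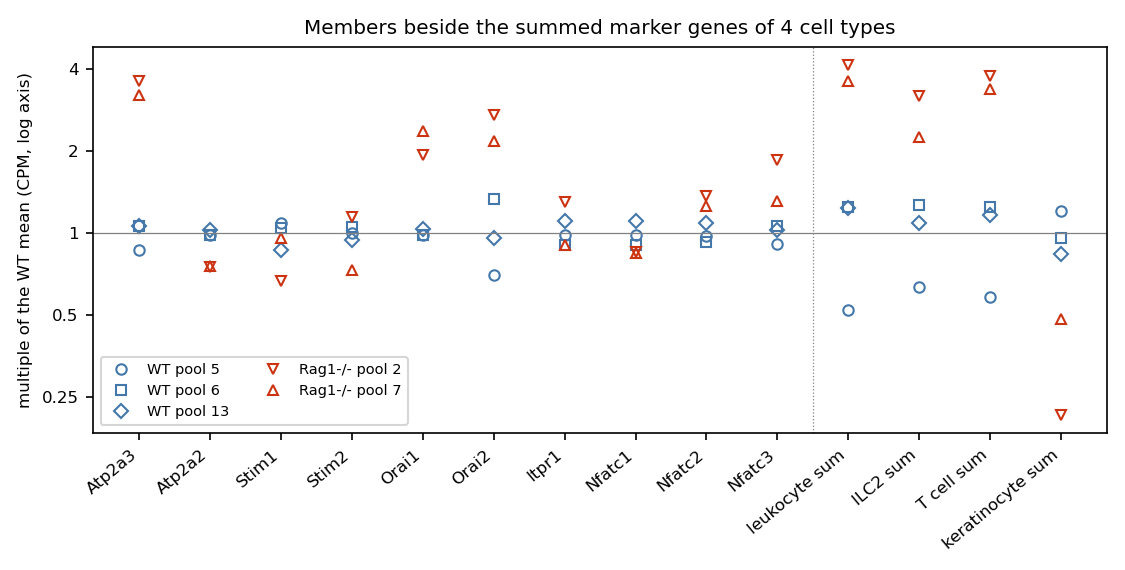
Level of each member, and summed level of 4 marker lists (right of the dotted line), as a multiple of the WT mean of CPM on a log axis, with 1 symbol for each of the 5 libraries. The leukocyte sum lies at 3.62 and 4.16 and Atp2a3 at 3.22 and 3.62 in the Rag1-/- pools, while the keratinocyte sum lies at 0.215 and 0.485.

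**Figure D4:**
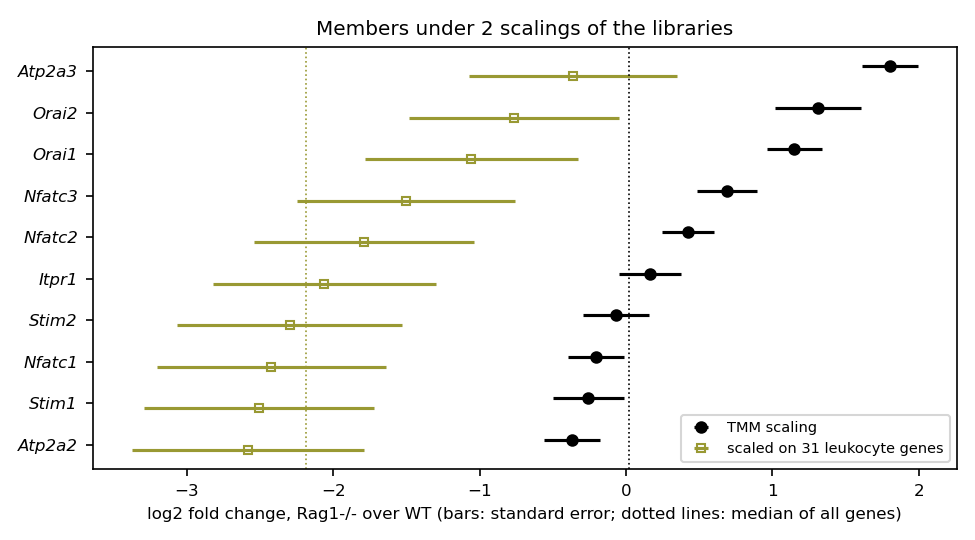
Log2 fold change of each member (Rag1-/- over WT) with its standard error, under TMM scaling (black) and under scaling on 31 leukocyte genes (olive), with dotted lines at the median of all genes under each (0.02 and -2.19). Atp2a3 is at 1.80 under TMM and at -0.36 under leukocyte scaling, and all 10 members are below 0 under the second.

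The profile of each member over the 5 libraries was compared with that of every other tested gene, by the Euclidean distance of centred log2 CPM. Lgals3bp (distance 0.07) and 1700097N02Rik (0.13) were the genes nearest to Atp2a3, and 106 genes lay within 0.5. For Orai1 the nearest were Adprm (0.11) and Nptxr (0.11), with 390 genes within 0.5, and for Orai2 they were Nfkbid (0.15) and Ets1 (0.16), with 219. The flatter members had far more neighbours, from 1231 genes for Nfatc3 to 2620 for Nfatc1. Ripk1 and Gm43462 were nearest to Atp2a2, Dffa and Atg13 to Stim1, Scaf8 and Gm16861 to Stim2, and Galnt16 and A230056P14Rik to Itpr1. Nt5dc1 and 1810012K08Rik were nearest to Nfatc1, Tspyl4 and Armc10 to Nfatc2, and Pi4ka and 2810408I11Rik to Nfatc3. Among members, Atp2a2 and Nfatc1 were nearest to each other (0.25) and the pumps Atp2a3 and Atp2a2 were farthest apart (2.40). With 5 libraries in 2 groups, these distances mostly describe the size of the difference between genotypes.

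A further 100 genes of the pathway, in 9 lists by role, were examined in the same fit, and 99 passed the filter. Of these, 14 were called higher and 1 lower (15.2%, against 5.73% of all genes), and their median log2 fold change was 0.17. All 14 higher calls, and not the lower one, were lost when libraries were scaled on the leukocyte genes. Without WT pool 5, 6 or 13 or Rag1-/- pool 2, 0 of the 15 were called, and without Rag1-/- pool 7 the pathway had 23 calls (14 higher, 9 lower).

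Store release and its enzymes had 0 of 12 genes called. Itpr3, the receptor gene with the highest CPM in that list, had a log2 fold change of -0.75 (SE 0.30, adjusted p = 0.166). For regulators of store entry 1 of 8 was called: Saraf, which turns store-operated entry off, rose by a log2 fold change of 1.22 (SE 0.26, adjusted p = 0.0434). The level of Saraf was 189, 273 and 251 CPM in WT and 452 and 631 CPM in Rag1-/-, without overlap. For other pumps and exchangers 0 of 11 were called, and Atp2b4, a plasma membrane pump, was at 382 to 504 CPM in WT and 253 to 387 CPM in Rag1-/-. For mitochondrial uptake 0 of 9 were called, and Vdac1, a channel of the outer membrane, had a log2 fold change of -0.27 (SE 0.24).

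Among store buffers and chaperones 1 of 8 was called: Pdia4 rose, with 53.7 to 59.8 CPM in WT and 134 and 117 CPM in Rag1-/- (log2 fold change 1.19, SE 0.18, adjusted p = 0.0306). Hspa5, the gene with the highest CPM there, had a log2 fold change of 0.57 (SE 0.25, adjusted p = 0.207). Among other membrane channels 2 of 10 were called higher. Trpv2, a cation channel of immune cells, rose by 2.16 on the log2 scale (SE 0.31, adjusted p = 0.0306), and Kcnn4, the calcium-activated potassium channel that sustains calcium entry in lymphocytes, by 1.77 (SE 0.31, adjusted p = 0.0320). Trpv2 was at 19.6, 40.9 and 36.4 CPM in WT and 144 and 138 CPM in Rag1-/-. Piezo1 had a log2 fold change of 0.07 (SE 0.27).

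Calmodulin and calcineurin genes had 4 of 16 called higher. They were Calm3 (log2 fold change 1.11, SE 0.19), the calcineurin subunit Ppp3cc (1.26, SE 0.25), the calcineurin regulator Rcan3 (1.15, SE 0.20) and the kinase Camk4 (1.91, SE 0.37), with adjusted p between 0.0308 and 0.0378. Ppp3cc was at 9.77, 10.9 and 9.87 CPM in WT and 29.7 and 18.6 CPM in Rag1-/-. A list of other NFAT genes, kinases that send NFAT out of the nucleus, Nfatc2ip, Homer2 and Homer3 had 0 of 12 called. Csnk1a1, its gene of highest CPM, had a log2 fold change of -0.67 (SE 0.21, edgeR adjusted p = 0.106).

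Genes known as NFAT targets in T cells had 6 called higher and 1 lower of 13 tested. Il13, the type-2 cytokine gene of ILC2s, was at 14.7, 39.5 and 37.4 CPM in WT and 174 and 134 CPM in Rag1-/- (log2 fold change 2.36, SE 0.41, adjusted p = 0.0309). Csf2, which encodes GM-CSF, rose by 3.22 (SE 0.54, adjusted p = 0.0307), Pdcd1, which encodes PD-1, by 3.09 (SE 0.51, adjusted p = 0.0306) and Irf4 by 1.56 (SE 0.30, adjusted p = 0.0363), all on the log2 scale. Egr3, an early response factor, was at 108, 113 and 91.4 CPM in WT and 30.1 and 39.4 CPM in Rag1-/-, and fell by 1.54 on the log2 scale (SE 0.23, adjusted p = 0.0306). Nr4a1, the target with the highest CPM, had a log2 fold change of 0.33 (SE 0.24, adjusted p = 0.443). The list was drawn from T cell biology with results of these data known, and its genes have other inputs than NFAT.

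**Figure D5:**
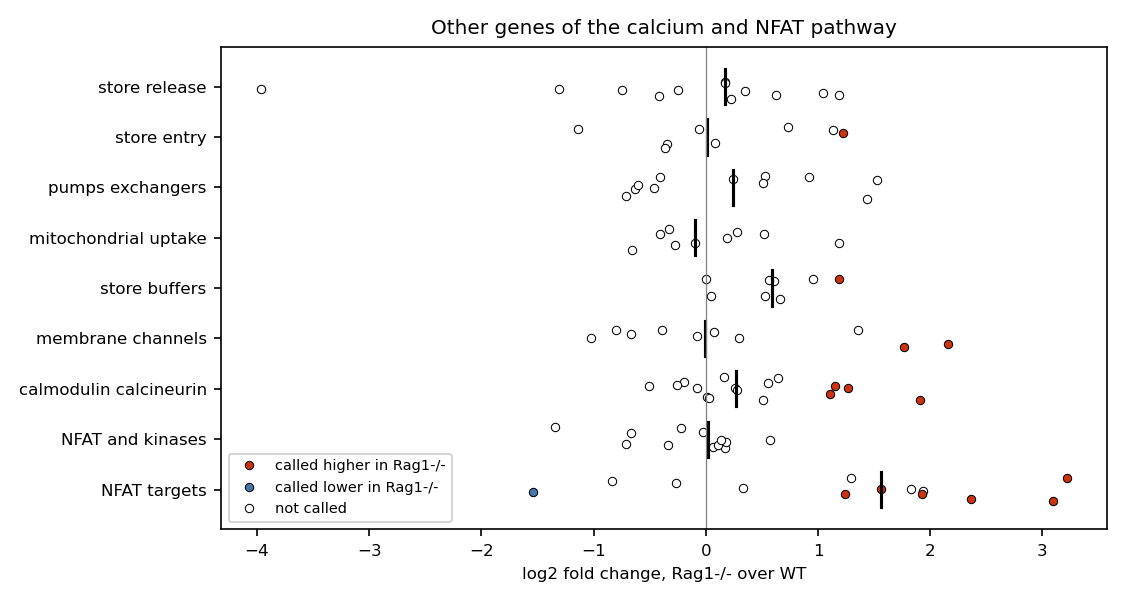
Log2 fold change (Rag1-/- over WT) of 99 other genes of the calcium and NFAT pathway, 1 point for each gene, in 9 lists, with red for genes called higher, blue for the gene called lower, white for genes not called and a black line at each list's median. The NFAT target list has the highest median (1.56) and 7 of the 15 calls, and 4 lists have none.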

How the data were processed

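RNA of sorted dILC2s was sequenced in 5 poly(A) libraries (TruSeq v2, single-end reads of 50 bases), 3 WT and 2 Rag1-/-, each a separate pool of mice by the study's methods. The authors deposited raw counts per gene, without normalization. The submitters' processing notes name bcl2fastq 2.17.1.14, FastQC 0.11.5, STAR 2.5, featureCounts 1.5.0-p1 and DESeq2 1.8.2, and GRCm38 beside GRCm39. The start and end of each member in the count table overlapped its GENCODE M21 entry on GRCm38 for 10 of 10 members. A normalized signal per gene symbol was also deposited by the authors and entered only an alternative. Mappability and reads shared by near-identical copies could not be examined from counts, and without strand a gene cannot be told apart from an antisense partner.

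Groups came from the library names in the labels. Genotypes were compared over all genes with edgeR 4.0.16 in R 4.3.3, by the quasi-likelihood test with TMM scaling on genes that passed filterByExpr, with p-values adjusted after Benjamini and Hochberg. A gene was called where the adjusted p was under 0.05 and the log2 fold change exceeded 1 in size. Standard errors are the fold change over the root of the F statistic. CPM are counts scaled by the library total, and levels per kilobase used the union of GENCODE M21 exons. The floors cover counting error only, and reads carried no molecular identifiers. SDs are between the pools of a genotype, and the standard errors take in variation between pools.

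The members and all lists were chosen with earlier results of these data known, so no p is given for a member or a list. All members are named. Of the other pathway genes, the text names up to 4 called genes a list and direction by smallest p, the gene of highest mean CPM in each list (not reported here for 1 list), and the paralogues of members (Orai3, Itpr2 and Atp2a1). Marker genes with a repeated symbol (Cd37, Itgam and Flg) were left out. The remaining marker lists, by summed CPM in WT and Rag1-/-, were NK and ILC1 (7.22 to 17.5, 56.1 to 68.3), B cell (19.7 to 35.2, 14.7 to 37.8), mast cell (180 to 306, 453 to 615), myeloid (1138 to 3043, 1697 to 2784), fibroblast (7863 to 13988, 8435 to 8739), endothelial (331 to 547, 164 to 353), skeletal muscle (22.1 to 56.1, 18.4 to 109), smooth muscle (133 to 307, 98.9 to 207) and melanocyte (42.7 to 64.1, 26.7 to 49.9). The mast cell sum was dominated in Rag1-/- by Kit, at 52.9 to 179 CPM in WT and 534 and 336 CPM in Rag1-/-. Only 2 of the 8 mast cell genes had a positive log2 fold change (Kit and Hdc), and their list's median was -0.36.

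Alternatives were DESeq2 1.42.0, limma 3.58.1 on log2 of the deposited signal plus 1, RLE scaling, scaling on the leukocyte genes or on library size, omission of the filter, a minimum of 10 counts per library, calls by the adjusted p without a fold threshold, and each library left out in turn. Thinning to 8050562 counts and the Orai1 to Stim1 ratio were added after seeing the data.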

Additional observations from a re-analysis of the deposited data

How the results depend on the processing

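No paired analysis was possible because the genotypes share no replicate numbers. The 1090 genes called became 2454 with DESeq2 (1197 higher, 1257 lower), 2645 without a filter (1157 higher, 1488 lower) and 13309 with scaling on the leukocyte genes. With each library left out in turn the count lay between 0 and 2409: it was 0 without WT pool 5, 6 or 13 or Rag1-/- pool 2 (edgeR, with 3521 to 5200 genes at an unadjusted p under 0.05), and 2409 without Rag1-/- pool 7. These fits rest on 4 libraries, and where 1 Rag1-/- library remained it was assumed to vary like the others. The members called higher (3) remained 3 under DESeq2, limma, RLE, library size, both filters, the adjusted p alone and thinning, became 0 under leukocyte scaling, and lay between 0 and 1 with a library left out, where Atp2a3 alone was called, without Rag1-/- pool 7. The other pathway genes called (15) became 24 with DESeq2, 66 (all lower) with leukocyte scaling, and 0 to 23 with a library left out.

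Under leukocyte scaling the log2 fold change turned negative for Atp2a3 (-0.36), Orai1 (-1.06), Orai2 (-0.77), Itpr1 (-2.06), Nfatc2 (-1.79) and Nfatc3 (-1.50). With a library left out it ranged from 1.71 to 1.86 for Atp2a3, 0.90 to 1.32 for Orai1, 1.11 to 1.59 for Orai2, -0.64 to 0.012 for Stim1, -0.37 to 0.13 for Stim2 and -0.076 to 0.32 for Itpr1. Stim1 and Itpr1 changed sign without Rag1-/- pool 2, and Stim2 without pool 7. The log2 difference of the Atp2a3 to Atp2a2 ratio ranged from 2.09 to 2.27 with a library left out, and was 2.18 from the deposited signal as from the counts. The cause of these changes was not tested.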
